A study of Mus musculus with 12 samples.

Results

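The genes described here encode the proteins of the cytosolic ribosome. A gene was taken where its symbol in the probe set annotation is Rpl or Rps directly followed by a digit, or is Rplp0, Rplp1, Rplp2 or Rpsa. Rps27l, the Rps6 kinases and pseudogenes were left out. Of 18194 genes that at least 1 probe set names on its own, 49 met this rule. Each gene was represented by its brightest probe set, the one with the highest mean over the 12 arrays, and a gene was kept where 3 or more arrays exceeded a log2 value of 5, which left 46 of the 49. They were fitted with the 9121 genes that passed the same filter. Rpl3l, Rps16 and Rps27 fell below it, with no value above 2.28 on any array, at the bottom of the scale, and the lowest member inside was Rpl39l, at 5.80 to 8.22. The 46 genes comprised 19 of the small subunit, 20 of the large subunit, the stalk genes Rplp0 and Rplp2, the paralogs Rpl7l1, Rpl22l1, Rpl39l and Rps4l, and Rps19bp1. Rps19bp1 meets the symbol rule but encodes a protein that binds Rps19, not a ribosomal protein. Rpl3, Rpl5, Rpl23, Rpl26, Rplp1 and other ribosomal protein genes have no probe set that names them alone and were not analysed here as genes. Another 110 probe sets list a ribosomal protein gene among several symbols and were examined apart.

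The ribosome is built from a small subunit, which reads the messenger RNA, and a large subunit, which forms the peptide bond. Its proteins are made in matched amounts, and their messenger RNAs begin with a run of pyrimidines, the 5′ terminal oligopyrimidine (TOP) motif, through which the mTOR pathway and Larp1 control their translation. Free ribosomal proteins such as Rpl11 bind Mdm2 and thereby stabilise p53, which links the supply of ribosomal proteins to the response to stress. Microglia are the resident macrophages of the brain.

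Hippocampal cells positive for CD11b, a surface protein of microglia and other myeloid cells, were isolated by FACS from female mice of 2 strains, C57BL/6 and Balb/c. At 6.5 weeks of age the forebrain was exposed once to X-rays (10 Gy, field 1 cm wide) or sham treated, and all mice were examined 1 month later at 10.5 weeks. The 4 groups (C57BL/6 sham, C57BL/6 irradiated, Balb/c sham and Balb/c irradiated) held 3 arrays each, 1 mouse per array. RNA came from 5000 to 10000 sorted cells per animal and went through 2 rounds of linear amplification. The comparisons asked what irradiation changed in each strain and whether the strains differed.

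Promoter sequences hold the bases around the start, where a pyrimidine run can be looked for. Those of some of the genes named below are given first. The TOP motif acts on translation, which the arrays do not measure. RefSeq's table (GRCm38.p6) held 40 of the 46 genes. Rpl7, Rpl8, Rps14, Rps20, Rps29 and Rps4l were not in it. Each line runs from 40 bases before to 20 bases after the annotated start, 5′ to 3′ on the gene's strand, and capitals mark the longest run of C and T, at least 5 bases long, that reaches into the 10 bases on either side of the start. The windows are at chr7:24884552-24884611 (plus strand) for Rps19, chr4:86857348-86857407 (minus) for Rps6, chr7:99483690-99483749 (minus) for Rps3, chr5:115559427-115559486 (plus) for Rplp0, chr7:3704001-3704060 (plus) for Rps9, chr17:33955646-33955705 (minus) for Rps18 and chr3:28805468-28805527 (plus) for Rpl22l1.
Rps6: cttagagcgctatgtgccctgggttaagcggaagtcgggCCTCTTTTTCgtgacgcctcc
Rps9: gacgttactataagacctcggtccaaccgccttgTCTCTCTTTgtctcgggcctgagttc
Rps18: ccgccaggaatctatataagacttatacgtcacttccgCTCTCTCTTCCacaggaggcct
Rpl22l1: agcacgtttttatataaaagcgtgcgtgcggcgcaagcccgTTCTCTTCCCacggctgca
Rplp0: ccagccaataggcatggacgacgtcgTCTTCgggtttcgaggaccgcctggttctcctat
Rps19: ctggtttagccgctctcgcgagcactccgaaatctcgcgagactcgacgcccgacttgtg
Rps3: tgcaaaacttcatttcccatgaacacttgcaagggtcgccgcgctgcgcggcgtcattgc

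Rps6, Rps9, Rps18 and Rpl22l1 carry runs of 9 to 11 bases at or next to the start, and Rps19 and Rps3 have no run of 5 or more at the start listed. Rplp0 has a run of 5 that begins at position -14 and lies wholly before the annotated start. A run counted here can thus lie outside the messenger RNA, so the shares below are not counts of TOP motifs. Among the 40 genes, 28 (70.0%) had a run of at least 5 there, against 45.0% of 27025 starts in the table, the first listed of each gene. A run of at least 8 was present in 17 (42.5%), against 13.5% of all starts. Over the 300 bases from 250 before to 50 after the start, the letters CTTCCG on either strand, the core that ETS-family factors recognise, stood in 28 genes (70.0%), against 17.2%. TATAAA on either strand stood in 5 (12.5%), against 14.2%. Genes with a run of at least 8 had a median log2 difference between irradiated and sham arrays of -0.06 in C57BL/6 and -0.15 in Balb/c. The 23 others in the table had -0.04 and -0.20. Genes with a run were thus not further below zero than the others in Balb/c, and no test was made of this.

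The arrays were checked for cell type and RNA quality. All 14 microglial markers on the array passed the filter, and after irradiation none was called in C57BL/6 and 1, lower, in Balb/c, with medians of -0.14 and -0.10. Of all genes 1.46% were called lower in C57BL/6 and 2.89% in Balb/c. Averaged over strains 3 of the 14 were called lower, against 8.15% of all genes, and 11 were negative, where 57.2% of all genes were. P2ry12 was at 13.76 to 14.32 and Tmem119 at 13.84 to 14.18 over all arrays. Other markers were less even, with Fcrls at 12.89 to 14.62 and Trem2 at 10.15 to 11.88. Itgam, the gene of CD11b, was the dimmest, at 7.62 to 9.42. Of 12 T and NK cell markers 9, Cd3e and Cd8a among them, stayed under 3 on every array, as did the 3 erythroid markers. The other T and NK markers were not all silent: 2 passed the filter, and 1 was called lower after irradiation in Balb/c. Of 7 B cell markers 2 passed. In each of these lists 1 marker was called lower in Balb/c than in C57BL/6, in sham and in irradiated mice. The 11 oligodendrocyte markers had a summed linear signal of 37219 to 68672, and none of the 9 tested was called after irradiation. The 3′ minus 5′ signal of Actb and Gapdh, which rises when the amplified RNA is short, was 3.50 to 3.81 (log2 units) in 10 arrays, but 4.82 in Balb/c irradiated replicate 2 and 4.21 in replicate 3. The 18S control signal was 11.93 to 12.32 in sham arrays and 10.48 to 11.77 in irradiated arrays, so the groups did not overlap.

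No ribosomal protein gene passed the test after irradiation in C57BL/6. In Balb/c only the paralog Rps4l passed, and it fell. The test was limma's moderated test with Benjamini-Hochberg adjustment over the 9121 genes, and a gene was called at an adjusted p under 0.05. In C57BL/6 none of the 46 was called in either direction, against 2.21% of all genes called higher and 1.46% called lower. There 1 gene, Rps19, had an unadjusted p under 0.05, where 21.3% of all genes had one. In Balb/c 0 were called higher and 1 lower, against 3.26% and 2.89% of all genes. Here 11 (23.9%) had an unadjusted p under 0.05, close to the 22.8% of all genes. Averaged over both strains, Rps19 was called higher and Rps4l lower, against 7.72% of all genes called higher and 8.15% lower.

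Differences among these genes were small and mostly below zero. In C57BL/6 the median log2 difference of the 46 genes was -0.05, beside -0.04 over all genes tested, and 33 of 46 were negative, where 54.8% of all genes were. In Balb/c the median was -0.17, beside -0.04 over all genes, and 40 of 46 were negative, where 55.8% of all genes were. Both strains gave a negative difference for 32 genes and a positive one for 5, and 8 were positive in C57BL/6 and negative in Balb/c. The 95% confidence interval of the difference lay within 0.5 on either side of zero for 35 of 46 genes in C57BL/6 and 29 in Balb/c, against 33.4% of all genes in each strain. A larger change was therefore outside the interval for most of these genes. The share of all genes was not matched for signal level, and most members were bright. Within groups they also varied little. The median within-group SD was 0.08 for the 34 genes with a mean above 12, beside 0.12 for all 744 genes that bright. Above 12 the levels were not matched further, so a part of signal level in this spread was not tested.

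**Figure D1:**
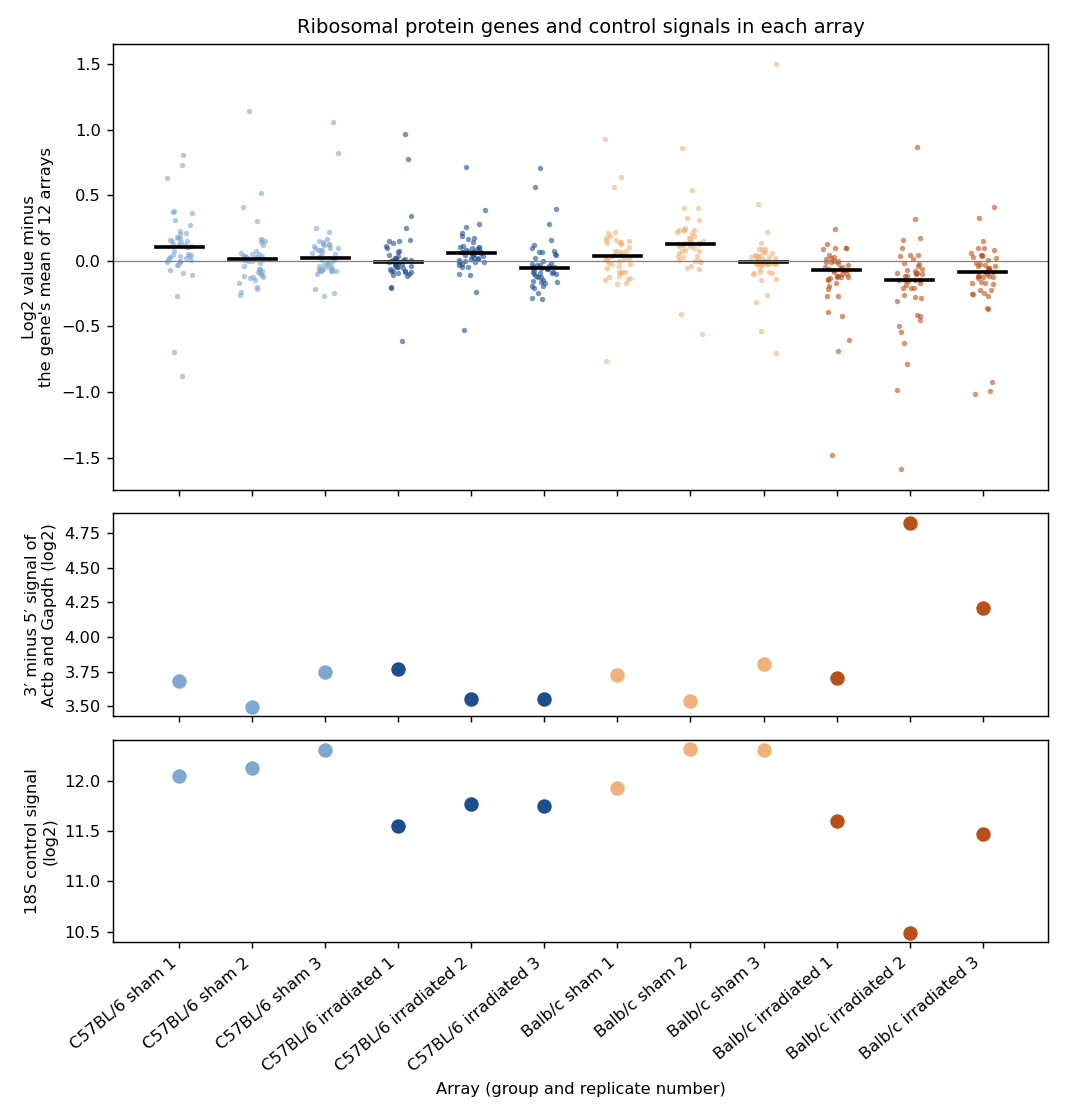
The top panel plots the log2 value of each of the 46 genes minus its own mean over 12 arrays, with a black bar at the median of each array. The other panels plot the 3′ minus 5′ signal of Actb and Gapdh and the 18S control signal (log2); the Balb/c irradiated arrays have the lowest medians (-0.07, -0.14 and -0.08), and replicate 2 stands apart in both control signals.

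The lower level in Balb/c was spread over all 3 irradiated arrays. Set against the mean of the Balb/c sham arrays, the median of the 46 genes was -0.14 in irradiated replicate 1, -0.20 in replicate 2 and -0.15 in replicate 3, with 38, 38 and 37 genes lower. Replicate 1 had a 3′ minus 5′ signal of 3.70 and an 18S signal of 11.60, which lay below every sham array. The 18S signal did not overlap between irradiated and sham arrays, so its part and that of irradiation cannot be told apart. The median was -0.14 with the 3′ minus 5′ signal as a covariate and -0.13 with the 18S signal as a covariate. In C57BL/6 the same values were -0.05, 0.00 and -0.10, with 32, 22 and 36 genes lower. All 3 irradiated arrays lay below all 3 sham arrays for 20 genes in Balb/c, against 16.3% of all genes, and above them for 1, against 12.8%. The 20 were Rps3, Rps3a1, Rps4x, Rps4l, Rps7, Rps9, Rps15, Rps18, Rps19bp1, Rps24, Rps26, Rps28, Rpsa, Rpl6, Rpl7, Rpl7a, Rpl8, Rpl10a, Rpl13a and Rpl22. In C57BL/6 the arrays separated downward for 1 gene, Rps28, against 15.1% of all genes, and upward for 4, Rps18, Rps19, Rpl41 and Rpl22l1, against 11.4%.

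Other cell types also moved with irradiation. In C57BL/6 and in Balb/c, 3 and 2 of 5 tested monocyte markers were called higher, and 0 and 4 of 10 for border-associated macrophages. The counts were 2 and 4 of 12 for astrocytes, 0 and 4 of 9 for endothelial cells and pericytes, and 0 and 2 of 4 for neutrophils. Of all genes 2.21% and 3.26% were called higher. Averaged over strains the counts in the same order were 3, 8, 8, 4 and 2, against 7.72% of all genes. The border-associated macrophage medians were similar, 1.02 in C57BL/6 and 1.07 in Balb/c. The summed linear signal of the monocyte list was 433 to 953 in C57BL/6 sham and 1710 to 2394 in C57BL/6 irradiated arrays, and 662 to 870 and 1361 to 2117 in the Balb/c arrays. That of the border-associated macrophage list was 10367 to 22566 and 20902 to 26052 in C57BL/6, and 8005 to 9463 and 12682 to 16385 in Balb/c. The astrocyte list had 34490 to 42638 and 45680 to 67860 in C57BL/6, and 37427 to 44618 and 55136 to 77403 in Balb/c. The endothelial and pericyte list had 5648 to 6684 and 7007 to 10390 in C57BL/6, and 5662 to 10011 and 13593 to 17428 in Balb/c. Neutrophil markers summed to 478 to 2380 and 504 to 2573 in C57BL/6, and 131 to 187 and 878 to 3602 in Balb/c. Of the defining markers, Siglec1, Pecam1, F10, Mpo, Elane and Cxcr2 were under 3 on every array. Their part in the ribosomal protein values was not tested. In sorted cells measured in bulk, fewer cells of a type and less RNA per cell cannot be told apart.

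**Figure D2:**
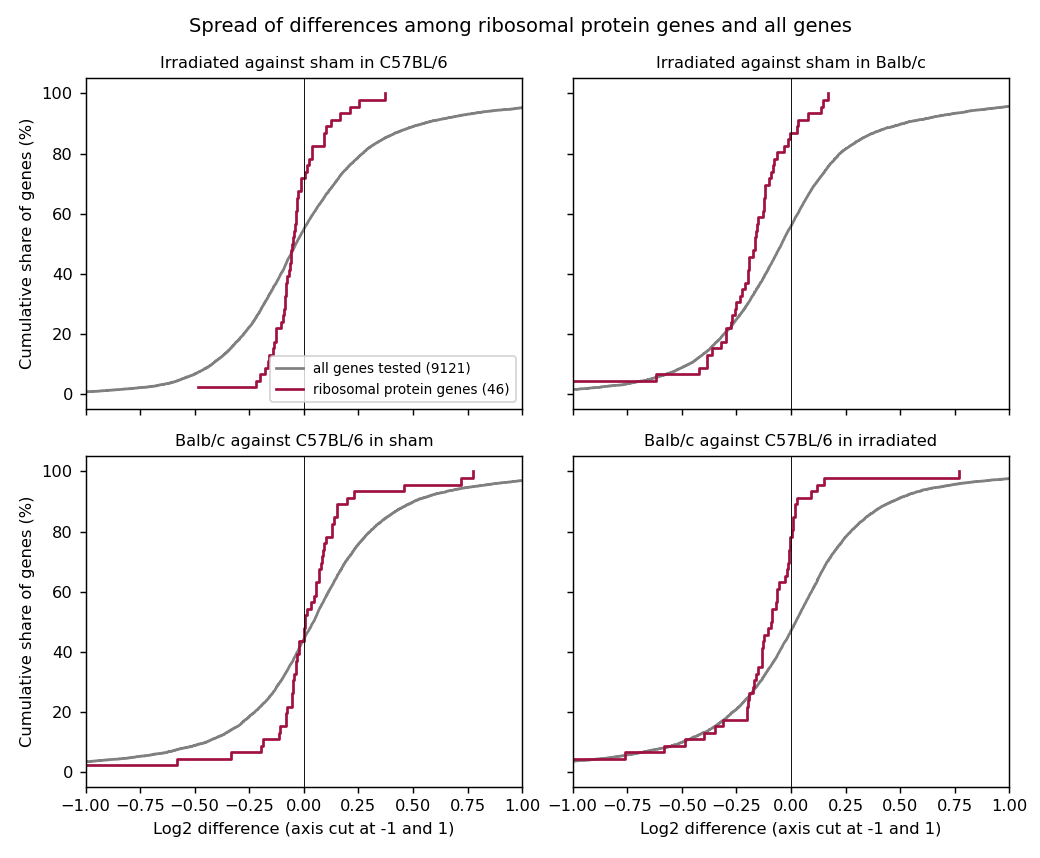
Cumulative share of genes (%, vertical axis) against the log2 difference (horizontal axis, shown from -1 to 1) for the 46 ribosomal protein genes and all 9121 genes tested, in 4 comparisons. The ribosomal protein genes rise more steeply than all genes, and after irradiation in Balb/c their curve lies to the left, with a median of -0.17 beside -0.04.

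Among the 19 small subunit genes the median log2 difference after irradiation was -0.04 in C57BL/6 and -0.19 in Balb/c. Rps19, whose human counterpart is the gene most often mutated in Diamond-Blackfan anaemia, moved the other way. Its log2 values were 12.95, 12.80 and 12.82 in C57BL/6 sham and 13.22, 13.34 and 13.13 after irradiation. The Balb/c arrays held 12.94, 13.05 and 13.03 (sham) and 13.19, 13.10 and 13.14 (irradiated). The irradiated arrays lay above the sham arrays in both strains without overlap. The difference was 0.37 ± 0.10 (log2 ± SE) in C57BL/6, with an adjusted p of 0.0657 in limma, and 0.14 ± 0.10 in Balb/c. Averaged over the strains Rps19 rose by 0.25 ± 0.07, or 1.19-fold (limma, adjusted p = 0.0330). This call held without C57BL/6 sham replicate 1, C57BL/6 irradiated replicate 3 or Balb/c irradiated replicate 2, but was lost on leaving out any of the other 9, where adjusted p reached 0.0774. It was also lost with the 3′ minus 5′ or the 18S signal as a covariate, at adjusted p of 0.0629 and 0.183.

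Rps3, which lines the channel where messenger RNA enters and also has a role in DNA repair, was near the threshold in Balb/c. Its values were 14.17, 14.03 and 14.18 in Balb/c sham and 13.88, 13.68 and 13.73 in Balb/c irradiated arrays, with no overlap. The difference was -0.36 ± 0.10 (adjusted p = 0.0533 in limma). In C57BL/6 the arrays overlapped, at 14.27, 14.26 and 14.18 in sham and 14.21, 14.29 and 14.26 in irradiated mice, and the difference was 0.02 ± 0.10. A second, dimmer probe set of Rps3 gave -0.41 ± 0.23 in C57BL/6 and -0.16 ± 0.23 in Balb/c, neither called, so the strain pattern of the main probe set was not seen in it.

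Rps9, a protein of the small subunit body, had the largest negative difference of a core ribosomal protein in Balb/c, -0.62 ± 0.20 (adjusted p = 0.0914 in limma). Its values were 13.32, 13.99 and 13.35 in Balb/c sham and 13.22, 12.63 and 12.95 in Balb/c irradiated arrays. The C57BL/6 arrays overlapped, at 13.23, 12.93 and 13.12 (sham) and 12.93, 13.03 and 12.84 (irradiated). The average over strains was -0.39 ± 0.14 (adjusted p = 0.0859). The other 2 probe sets of Rps9 gave 0.18 ± 0.17 and 0.26 ± 0.24 in Balb/c, so the negative difference was seen in 1 of 3. Without Balb/c sham replicate 2, the highest array, the Balb/c difference was -0.40, and it was -0.32 and -0.15 with the 3′ minus 5′ and the 18S covariate.

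Rps6, the substrate of the S6 kinases in the mTOR pathway, had 9.79, 10.20 and 10.12 in C57BL/6 sham mice and 10.03, 9.77 and 9.77 after irradiation. The Balb/c arrays held 8.30, 8.50 and 8.36 (sham) and 8.38, 7.47 and 8.04 (irradiated). Irradiated and sham arrays overlapped in both strains, with differences of -0.18 ± 0.21 and -0.42 ± 0.21, neither called. Both signs turned with the 18S signal as a covariate, to 0.12 and 0.20, and the Balb/c value was -0.18 without Balb/c irradiated replicate 2. The large separation was between the strains and is described below.

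Rpsa, known both as a ribosomal protein and as a laminin receptor, had 13.73, 13.69 and 13.55 in Balb/c sham and 13.37, 13.37 and 13.46 in Balb/c irradiated arrays. Its differences were -0.03 ± 0.11 in C57BL/6 and -0.26 ± 0.11 in Balb/c (adjusted p = 0.207 in limma). Rps14, whose loss of 1 copy underlies the anaemia of the human 5q deletion syndrome, had differences of -0.03 ± 0.10 and -0.19 ± 0.10. Rps20 was among the most even genes, at 15.37 to 15.56 on all arrays, and its differences were 0.01 ± 0.08 and 0.03 ± 0.08. Rps10 stood at -0.14 ± 0.10 and -0.10 ± 0.10 on its main probe set. One dimmer probe set of Rps10 lay at or above 12.69 in Balb/c sham and at or below 12.57 in Balb/c irradiated arrays. Another lay at or above 13.88 and then at or below 13.84, and both overlapped in C57BL/6. A further one was lower without overlap in C57BL/6 only, and the remaining kept one overlapped in both strains. Rps25, which is needed for translation from some internal ribosome entry sites, had differences of 0.12 ± 0.25 and 0.17 ± 0.25, with no settled sign. They were -0.095 and -0.29 with the 18S covariate, the C57BL/6 value was -0.099 without C57BL/6 sham replicate 1, and the Balb/c value was -0.034 without Balb/c irradiated replicate 2. None of these genes was called on its main probe set. The main probe set of Rps29 was the brightest of the whole array in 9 of the 12, at 16.17, and lay at 15.96 to 16.03 in the others, so its range is bounded by the normalization.

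**Figure D3:**
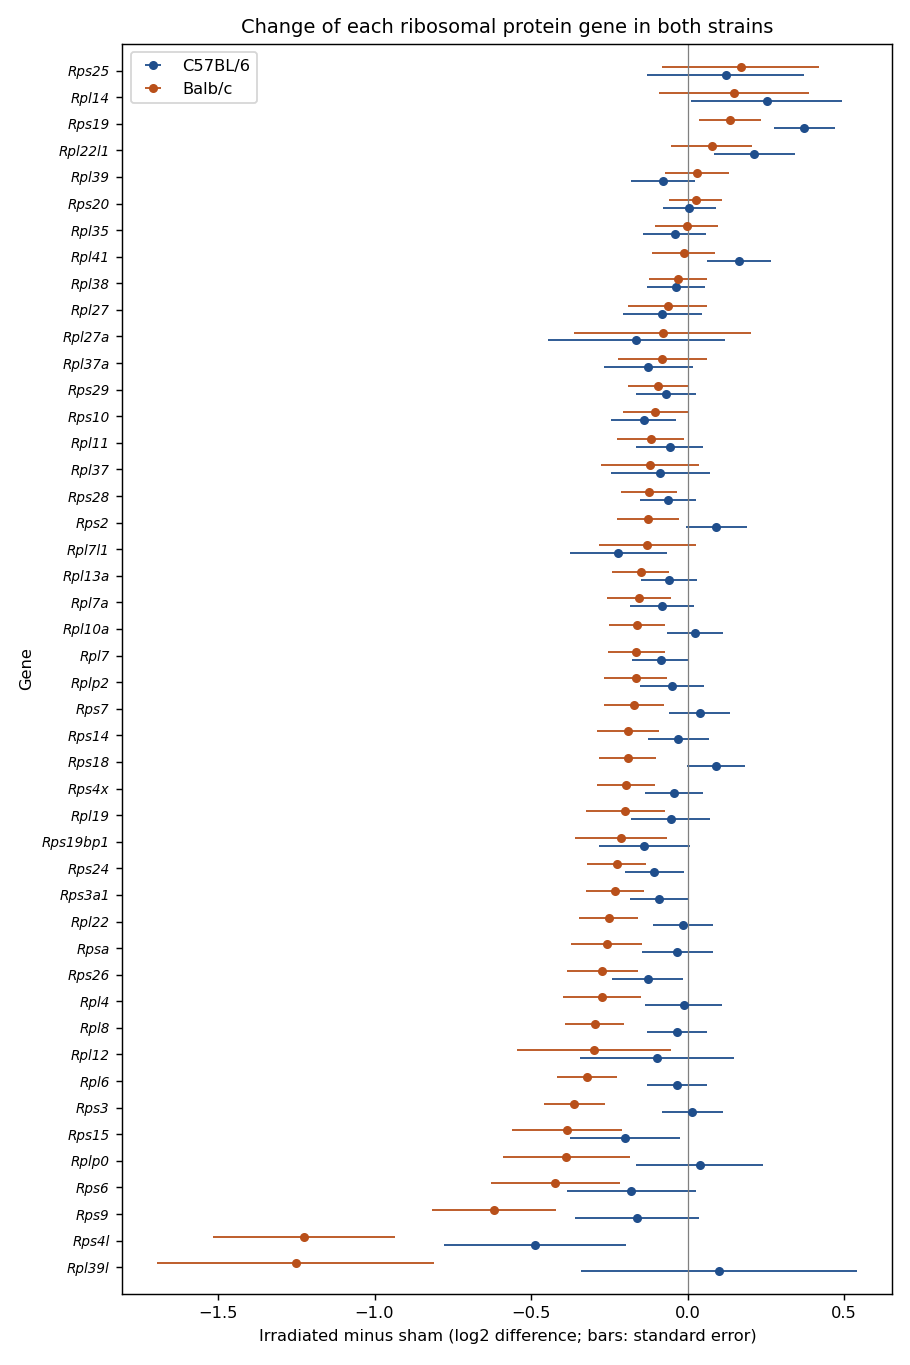
Log2 difference between irradiated and sham arrays (horizontal axis) with its standard error for each of the 46 genes, in C57BL/6 (blue) and Balb/c (orange), ordered by the Balb/c value. Most orange points lie left of zero, between -0.62 and 0.17, apart from the paralogs Rps4l and Rpl39l at -1.23 and -1.25.

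Among the 20 large subunit genes the median difference was -0.06 in C57BL/6 and -0.14 in Balb/c, and none was called. Rpl6 came closest in Balb/c. Its values were 14.17, 14.14 and 14.16 in Balb/c sham and 13.85, 13.88 and 13.78 in Balb/c irradiated arrays, and the difference was -0.32 ± 0.10 (adjusted p = 0.0749 in limma). In C57BL/6 it had 14.17, 14.04 and 13.99 in sham and 13.96, 14.13 and 14.00 in irradiated arrays, which overlapped, at -0.03 ± 0.10. Rpl8 gave -0.30 ± 0.09 in Balb/c (adjusted p = 0.0905) and -0.03 ± 0.09 in C57BL/6.

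Rpl22, which also binds its own paralog's messenger RNA, had 14.40, 14.38 and 14.34 in Balb/c sham and 14.15, 14.21 and 14.00 in Balb/c irradiated arrays. The arrays did not overlap, and the difference was -0.25 ± 0.09 (adjusted p = 0.143 in limma), beside -0.01 ± 0.09 in C57BL/6. Its 2 other probe sets gave -0.35 and -0.20 in Balb/c. Rpl11, one of the Mdm2-binding proteins, had differences of -0.06 ± 0.11 in C57BL/6 and -0.12 ± 0.11 in Balb/c, with overlapping arrays at 13.79 to 14.18. Rpl10a and Rpl38, both linked to selective translation of particular messenger RNAs, had 0.02 ± 0.09 and -0.04 ± 0.09 in C57BL/6 and -0.16 ± 0.09 and -0.03 ± 0.09 in Balb/c. Rpl14 had 0.25 ± 0.24 and 0.15 ± 0.24.

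Probe sets of Rpl41, the shortest ribosomal protein, disagreed. The main one had 14.04, 13.99 and 14.00 in C57BL/6 sham and 14.10, 14.24 and 14.20 in C57BL/6 irradiated arrays, a difference of 0.17 ± 0.10 that was not called. The dimmest had 9.89, 9.95 and 9.89 and then 9.41, 9.32 and 9.04, and in a fit of all probe sets it fell by 0.65 ± 0.13 (limma, adjusted p = 0.0327). The other 2 gave -0.47 ± 0.13 and 0.06 ± 0.12. In Balb/c the 4 probe sets lay between -0.14 and -0.01. Probe sets with the suffix _x_at, to which the main one belongs, can share probes with related sequences, and with these left out the gene was called lower in C57BL/6.

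The stalk, which recruits the elongation factors, was measured by Rplp0, its anchor, and by Rplp2. Rplp0 had 14.22, 14.00 and 14.10 in C57BL/6 sham mice and 14.20, 14.11 and 14.13 after irradiation. The Balb/c arrays held 13.73, 14.00 and 13.59 (sham) and 13.79, 12.86 and 13.50 (irradiated), and both pairs of groups overlapped. The lowest value belonged to replicate 2, the array with the highest 3′ minus 5′ signal. The difference was 0.04 ± 0.20 in C57BL/6 and -0.39 ± 0.20 in Balb/c, neither called. The Balb/c value turned to 0.03 with the 3′ minus 5′ signal as a covariate and to 0.24 with the 18S signal, and was -0.13 without Balb/c irradiated replicate 2. Rplp2 had -0.05 ± 0.10 and -0.17 ± 0.10.

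Of the paralogs, Rps4l and Rpl39l had the largest differences in Balb/c. Rps4l, a paralog of Rps4x, had 8.69, 8.35 and 7.51 in Balb/c sham and 6.57, 7.26 and 7.05 in Balb/c irradiated arrays, and the groups did not overlap. It fell by 1.23 ± 0.29, or 2.34-fold (limma, adjusted p = 0.0350). The call was lost without Balb/c sham replicate 1 or 2 (adjusted p = 0.116 for each) and without Balb/c irradiated replicate 1 (0.0909), 2 (0.0501) or 3 (0.0814). It was also lost with no filter (0.115), with either covariate (0.110 and 0.155), with the replicate number as a block (0.0550) and in a fit of the Balb/c arrays alone (0.0910). In C57BL/6 its values were 8.85, 8.56 and 8.87 in sham and 7.96, 8.26 and 8.61 in irradiated arrays, with a difference of -0.49 ± 0.29 that was not called. Averaged over strains Rps4l fell by 0.86 ± 0.21 (adjusted p = 0.0196), a call lost without Balb/c sham replicate 2 (0.0501), with no filter (0.0695) and with the 18S covariate (0.0825). Rps4x itself had -0.04 ± 0.09 in C57BL/6 and -0.20 ± 0.09 in Balb/c, neither called.

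Rpl39l, a testis-enriched paralog of Rpl39, had 7.65, 6.32 and 8.22 in Balb/c sham and 6.33, 6.30 and 5.80 in Balb/c irradiated arrays. Sham replicate 2 lay among the irradiated arrays, and the difference of -1.25 ± 0.44 was not called (adjusted p = 0.121 in limma). In C57BL/6 it was 0.10 ± 0.44. Rpl22l1 gave 0.21 ± 0.13 in C57BL/6, where all irradiated arrays (11.96, 11.69 and 11.66) lay above all sham arrays (11.44, 11.61 and 11.63), and 0.08 ± 0.13 in Balb/c. Rpl7l1 gave -0.22 ± 0.15 and -0.13 ± 0.15, and Rps19bp1 -0.14 ± 0.15 and -0.21 ± 0.15. None of these was called. Rpl7l1 had 3 kept probe sets, and the dimmer ones moved opposite ways in C57BL/6 without overlap. One lay at or below 7.997 in sham and at or above 8.26 in irradiated arrays. The other lay at or above 6.94 in sham and at or below 6.84 in irradiated arrays. In Balb/c the first overlapped and the other was again lower without overlap. Without the paralogs and Rps19bp1, the median of the 41 remaining genes was -0.05 in C57BL/6 and -0.16 in Balb/c.

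**Figure D4:**
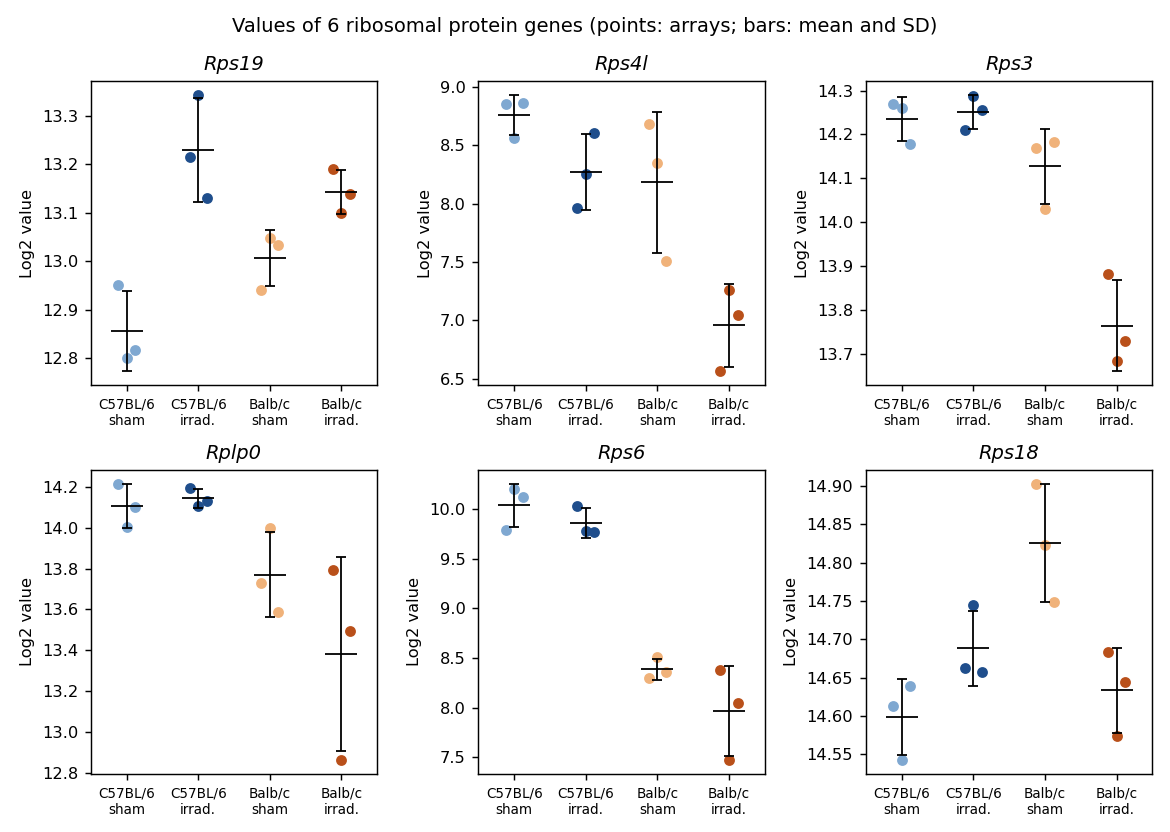
Log2 values of Rps19, Rps4l, Rps3, Rplp0, Rps6 and Rps18 in each array (points) with the mean and SD (n = 3) of each group, on an axis of its own for each gene. Rps19 is higher in irradiated than in sham arrays of both strains, and Rps6 separates the strains, at 9.77 to 10.20 against 7.47 to 8.50.

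Whether the strains responded differently was tested as the difference between their irradiation effects. None of the 46 genes was called in either direction, against 0.0439% of all genes called higher and 0.0329% lower. Rps3 was the 1 gene with an unadjusted p under 0.05, where 8.06% of all genes had one. Its interaction was -0.38 ± 0.14 (adjusted p = 0.558 in limma). Rpl39l had -1.35 ± 0.62, Rplp0 -0.43 ± 0.29 and Rps18 -0.28 ± 0.13. On the positive side Rpl39 had 0.11 ± 0.14, Rpl7l1 0.09 ± 0.22 and Rpl35 0.04 ± 0.14. These signs are those of the main probe sets. Of the dimmer ones of Rpl35, 2 fell in Balb/c without overlap and overlapped in C57BL/6. They lay at or above 12.84 and 13.22 in Balb/c sham and at or below 12.76 and 13.16 in Balb/c irradiated arrays. Its other kept probe sets overlapped in both strains. A dimmer one of Rpl7l1 rose without overlap in C57BL/6 only, and another fell without overlap in both strains. The median of the 46 genes was -0.14, beside -0.02 over all genes. It was -0.083 with the 3′ minus 5′ signal as a covariate and -0.082 without Balb/c sham replicate 2. The lower median in Balb/c was thus not matched by a called difference from C57BL/6 in any gene.

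Between the strains, Rps6 was the one ribosomal protein gene called in sham mice. It was 3.14-fold lower in Balb/c, a log2 difference of -1.65 ± 0.21 (limma, adjusted p = 4.06e-04), with no overlap between the strains. In sham mice 0 of 46 genes were called higher and 1 lower, against 5.22% and 5.24% of all genes, and the median difference was 0.01, beside 0.04 over all genes. However, 8 probe sets that list Rps6 together with other symbols had differences between -0.22 and 0.05, none called. The strain difference therefore belonged to 1 probe set and not to every probe set that lists the gene. Probe sequences were not used here, so whether a sequence difference between the strains under the probes, or binding of another transcript, plays a part in this value or in that of Rps9 given further on was not tested.

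In irradiated mice 0 genes were called higher in Balb/c and 4 lower, against 4.37% and 4.59% of all genes, and the median was -0.09, beside 0.02. This comparison shares its Balb/c irradiated arrays with the irradiation comparison above. The 4 were Rps6 at -1.89 ± 0.21 (limma, adjusted p = 1.78e-04), Rps4l at -1.32 ± 0.29 (0.0162), Rps3 at -0.49 ± 0.10 (0.00955) and Rplp0 at -0.76 ± 0.20 (0.0421). Rps4l lost its call without C57BL/6 irradiated replicate 3 (0.0638) or Balb/c irradiated replicate 1 (0.0566), and with the 3′ minus 5′ covariate (0.0684) or no filter (0.0707). Rplp0 kept its call without Balb/c sham replicate 2 or Balb/c irradiated replicate 1, and lost it without any of the other 10, where adjusted p reached 0.107. With the replicate number as a block its adjusted p was 0.0524, and with the 3′ minus 5′ signal as a covariate its difference was -0.29 (adjusted p = 0.577). Rps3 kept its call when any 1 array was left out, at adjusted p up to 0.0397, but lost it with the 3′ minus 5′ covariate (0.162), the 18S covariate (0.0614) and without Balb/c irradiated replicates 2 and 3 together (0.270). The mean of its 2 kept probe sets gave -0.03, since the dimmer one had 0.42 ± 0.23.

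Rps14 was next in irradiated mice, at -0.35 ± 0.10 (adjusted p = 0.0536 in limma), and had -0.19 ± 0.10 in sham mice. Rps25 was higher in every Balb/c array, 9.33 to 10.22, than in every C57BL/6 array, 8.48 to 9.27, but its differences of 0.72 ± 0.25 in sham and 0.77 ± 0.25 in irradiated mice were not called (adjusted p = 0.107 and 0.0900). The main probe set of Rps20 also separated the strains without being called, by 0.13 ± 0.08 and 0.15 ± 0.08. Its other kept probe set overlapped in sham mice, at 15.09 to 15.21 in C57BL/6 and 15.18 to 15.42 in Balb/c. In irradiated mice that probe set was higher in Balb/c without overlap. Rps18 had 0.23 ± 0.09 in sham mice and -0.05 ± 0.09 in irradiated mice. Rplp0 had -0.33 ± 0.20 in sham mice, and Rplp2, Rpsa, Rpl10a, Rpl11, Rpl22, Rpl22l1, Rpl38, Rpl41 and Rps19 lay between -0.17 and 0.20 in both comparisons.

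Rps9 showed the largest disagreement between probe sets. Its main probe set had 0.46 ± 0.20 between sham mice of the strains, not called. A second one, of the _x_at kind, had 15.26, 15.61 and 15.65 in C57BL/6 sham and 8.96, 9.53 and 8.97 in Balb/c sham arrays, a difference of -6.35 ± 0.24 (adjusted p = 2.78e-08 in limma's fit of all probe sets). In irradiated mice it was -6.07 ± 0.24, with 15.61, 15.45 and 15.39 in C57BL/6 and 9.17, 9.98 and 9.10 in Balb/c. The remaining, dimmer probe set had -0.25 ± 0.17 and 0.38 ± 0.17. One probe set of the gene thus separated the strains widely while the others did not, in sham and in irradiated mice alike.

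**Figure D5:**
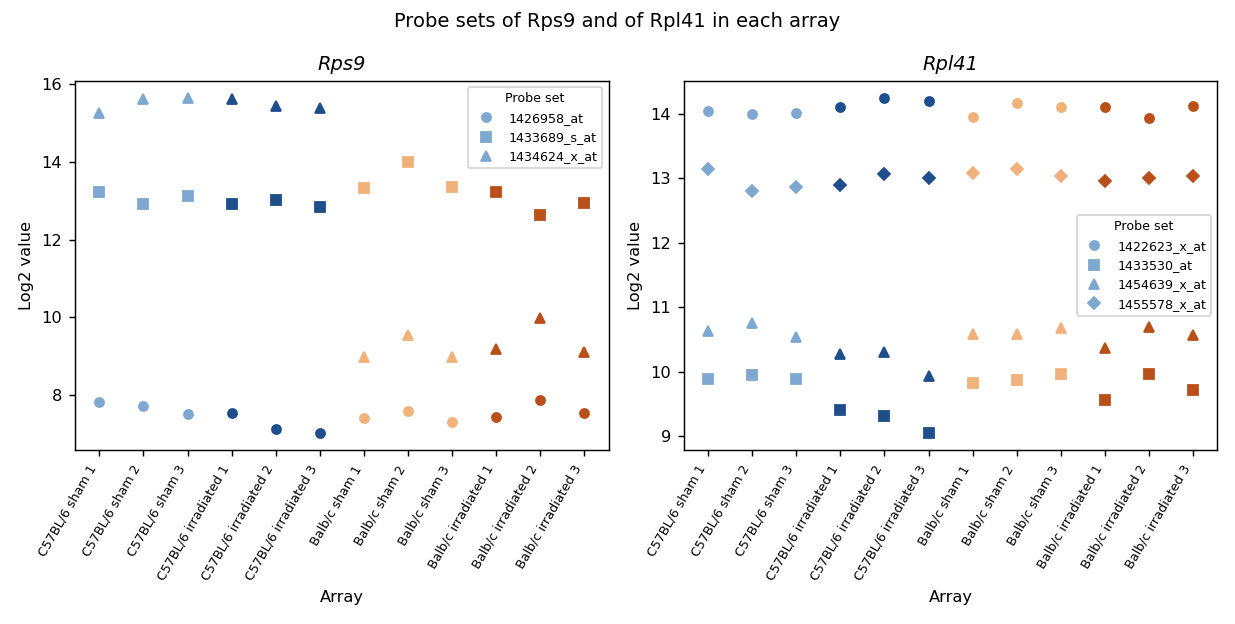
Log2 values of each probe set of Rps9 (left) and Rpl41 (right) that passed the filter, in each array, with colour for the group and marker shape for the probe set. The Rps9 probe set of the _x_at kind drops from 15.26 to 15.65 in C57BL/6 to 8.96 to 9.98 in Balb/c, while the other 2 do not.

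Of the 110 probe sets that list a ribosomal protein gene among several symbols, 97 passed the filter. They were also mostly lower after irradiation, without naming a gene. After irradiation none was called in C57BL/6 and 1, lower, in Balb/c, where 2.39% and 4.53% of all kept probe sets were called in either direction. Their median differences were -0.10 and -0.16, beside -0.05 and -0.17 for the 46 genes, and 79 and 89 of 97 were negative. The median and the share below zero were not computed over all kept probe sets. Several of the 97 list the same gene, as 8 list Rps6, so they are not separate observations. Their median for the strain by irradiation interaction was -0.088, nearer zero than the -0.14 of the 46 genes. Between strains 2 were called lower in sham and 3 in irradiated mice, where 9.64% and 8.72% of all kept probe sets were called.

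Other genes of the translation machinery were counted in the same way. Of 18 other TOP genes, such as elongation factors, none was called in C57BL/6, where the median was 0.00. In Balb/c 1 was called lower, against 2.89% of all genes, the median was -0.21, and 17 were negative, where 55.8% of all genes were. That gene was Eef2, which moves the ribosome along the messenger RNA and fell by 0.66 ± 0.16 in Balb/c (limma, adjusted p = 0.0414). In C57BL/6 Eef2 had -0.37 ± 0.16, not called. Averaged over strains Eef2 fell by 0.51 ± 0.12 (adjusted p = 0.0155) and Fau, which encodes a ubiquitin-like protein fused to a small subunit protein, by 0.28 ± 0.08 (adjusted p = 0.0485). These were the 2 of the 18 called there, against 8.15% of all genes called lower. Of 37 tested ribosome biogenesis genes none was called after irradiation in either strain, with medians of -0.03 and -0.16. In irradiated mice Noc3l, a biogenesis factor, had a Balb/c minus C57BL/6 difference of -1.11 ± 0.30 (limma, adjusted p = 0.0463). It was the 1 of 37 called there, against 4.59% of all genes called lower.

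Among 15 tested genes that control TOP translation or respond to ribosomal stress, 1 was called higher and 2 lower in C57BL/6, and 2 higher and 2 lower in Balb/c. Of all genes 2.21% were called higher and 1.46% lower in C57BL/6, and 3.26% and 2.89% in Balb/c. Cdkn1a, the p53 target that arrests the cell cycle, rose by 4.35 ± 0.21 in C57BL/6 and 3.12 ± 0.21 in Balb/c (limma, adjusted p = 3.90e-06 and 4.55e-05). Myc, a transcription factor that drives ribosome production, fell by 1.06 ± 0.18 in C57BL/6 and fell by 1.36 ± 0.18 in Balb/c (adjusted p = 0.0115 and 0.00233). Rptor, the mTOR complex subunit that binds its substrates, fell by 0.59 ± 0.12 in C57BL/6 and fell by 0.74 ± 0.12 in Balb/c (adjusted p = 0.0239 and 0.00609). Mdm2, the ligase that degrades p53, was also called in Balb/c, at 0.77 ± 0.19 (adjusted p = 0.0415).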

How the data were processed

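The values are log2 signals of 45101 Affymetrix probe sets that the authors deposited, normalized by GCRMA (named in the submitters' processing notes); no version, aligner or build is given in the sources used here. They run from 2.23 to 16.2 on all 12 arrays, with sorted values equal to within 0.001. One gene symbol was listed for 34958 probe sets, several for 932 and none for 9160; those with several name no gene, and 64 controls were left out. No test compared levels of different probe sets. Such levels were used only to pick the brightest, to describe bright and dim genes and to sum marker lists. The fit used limma 3.58.1 under R 4.3.3, with 1 mean per group, 8 residual degrees of freedom and Benjamini-Hochberg adjustment over all 9121 genes; the script was tested on simulated data. The number of arrays limits the precision.

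Members and lists were chosen with earlier results of these data known. For each comparison the text names called genes, the 3 smallest p in a direction with fewer than 3 calls, the paralogs and a set chosen for role; others were picked after their values were seen. Same-numbered arrays of the irradiated groups deviated together across genes (correlations 0.217, 0.447 and 0.323), so the strains may be paired there. Within strains the correlations ran from -0.02 to 0.28. C57BL/6 irradiated replicate 3 also had 0.415 with Balb/c sham replicate 3, so such values were not limited to the irradiated groups. Alternatives were the filter, probe set rule, scaling, variance model, samples in the fit, replicate block, threshold, quality covariates, updated symbols (no member changed) and each array left out. Leaving out Balb/c irradiated replicates 2 and 3 was added after the data were seen.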

Additional observations from a re-analysis of the deposited data

Results flagged for a closer look

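Rps18, a small subunit protein, was picked out because its irradiated arrays lay wholly above the sham arrays in C57BL/6 and wholly below them in Balb/c. Its log2 values were 14.61, 14.54 and 14.64 in C57BL/6 sham, 14.66, 14.74 and 14.66 in C57BL/6 irradiated, 14.90, 14.82 and 14.75 in Balb/c sham and 14.68, 14.57 and 14.64 in Balb/c irradiated arrays. The test of the difference itself gave -0.28 ± 0.13 (log2 ± SE, adjusted p = 0.624 in limma) and did not pass. Its other 2 bright probe sets gave -0.30 ± 0.14 and -0.12 ± 0.13 for the same difference, and their irradiated and sham arrays overlapped in C57BL/6.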

How the results depend on the processing

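The medians of the ribosomal protein genes moved by less than the spread between arrays of a group (0.06) in 152 of 154 alternatives. The exceptions were the interaction median with the 3′ minus 5′ covariate (-0.083) and without Balb/c sham replicate 2 (-0.082; over all arrays left out in turn -0.17 to -0.082). The number of genes called changed more often. In C57BL/6 it was 1 in place of 0 at an adjusted p under 0.1, with no filter, without _x_at probe sets, with trend and robust fitting and with array weights. In Balb/c it was 5 in place of 1 at an adjusted p under 0.1, 3 with no filter, 2 with a filter at 7, 2 without _x_at probe sets, 6 with trend and robust fitting and 3 with array weights. It was 0 with the replicate block, either covariate, the compared groups alone, the pair of arrays least like their groups (replicate 3 of C57BL/6 irradiated, replicate 2 of Balb/c irradiated) left out, or Balb/c irradiated replicates 2 and 3 left out, and 0 to 1 over arrays left out in turn. Averaged over strains it was 5 in place of 2 with no filter, 5 without _x_at probe sets and 7 with trend and robust fitting. It was 1 with the replicate block, the 3′ minus 5′ covariate, that pair left out or Balb/c irradiated replicates 2 and 3 left out, 0 with the 18S covariate, and 1 to 2 over arrays left out in turn. Between sham mice it was 4 in place of 1 with no filter, 2 with the mean of all probe sets or trend and robust fitting, and 1 to 2 over arrays left out. Between irradiated mice it was 1 in place of 4 with the 3′ minus 5′ covariate, that pair left out or Balb/c irradiated replicates 2 and 3 left out, 2 with the 18S covariate or the compared groups alone, and 2 to 4 over arrays left out. It was 6 at an adjusted p under 0.1, without _x_at probe sets and with trend and robust fitting. The replicate block changed no other call than those of Rps4l in Balb/c (adjusted p = 0.0550), Rps19 averaged over strains (0.0546) and Rplp0 between irradiated mice. Of 4294 alternative values of single genes, 192 had the opposite sign to the reported one, and for 187 of these neither value was called, as for Rplp0, Rps6 and Rps25 in Balb/c with the 18S covariate. The other 5 were Rpl41 without _x_at probe sets (-0.65 in C57BL/6, -0.40 averaged, 0.50 between irradiated mice) and Rps9 with the mean of its probe sets (-2.05 between sham and -1.89 between irradiated mice), as other probe sets then enter. The cause of the other changes was not tested. The compared groups alone give no separate fit for the average and the interaction, and no scanner files were used, so background correction was not varied.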
